A study of Mus musculus with 16 samples.

Results

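The expression of 9 genes of glycolysis and gluconeogenesis was examined in mouse liver. They were chosen by symbol, as Gckr, Pklr, Pfkl, Pfkfb1, Gapdh, Eno1, Pck1, Fbp1 and Slc37a4, among the 50559 gene symbols of the deposited table. All 9 were found, and all 9 were among the 18335 genes with enough counts to be tested. Of the 9, 7 encode enzymes, while Gckr encodes a regulatory protein and Slc37a4 a transporter.

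Liver RNA was sequenced from 16 male C57BL/6J mice in 4 groups of 4. The mice were 6 weeks old at the start and were kept for 10 weeks on a low-fat diet (LFD, called chow in the labels) or a high-fat diet (HFD), and were treated during the final 4 weeks. In the LFD and HFD groups the mice had an siRNA against luciferase as a control (10 mg/kg every 2 weeks) and methylcellulose, the vehicle, by gavage. In the HFD + siRNA group an siRNA against total ketohexokinase (KHK; 20 mg/kg), which a GalNAc tag directs to hepatocytes, took the place of the control siRNA. In the HFD + Inhib group the mice had the luciferase siRNA, and the gavage held PF-06835919 (15 mg/kg, 2 times a day), a small molecule inhibitor of the KHK enzyme that is given to the whole body and not directed to the liver. All mice thus received an siRNA and a gavage. The libraries held between 24317111 and 35820234 expected counts (median 29570114), and levels are given as CPM, counts scaled to a common library total after TMM normalization. The study injected mice with saline or insulin shortly before tissue collection. The labels do not say which of the sequenced mice received which, nor the feeding state, and both act on several of these genes.

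Glycolysis splits glucose into pyruvate, and gluconeogenesis runs in the opposite direction to release glucose from the liver. Most steps share the same enzymes, and the direction is set at a few steps that have separate enzymes, such as phosphofructokinase against fructose-1,6-bisphosphatase, and pyruvate kinase against pyruvate carboxylase and phosphoenolpyruvate carboxykinase. Fructose enters below phosphofructokinase by way of KHK and the trioses made from its product.

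For the 2 genes whose proximal promoters carry the best known carbohydrate and hormone response elements of this pathway, the sequence before the start site is shown, so that the element can be read in place. Both sequences are from RefSeq (build GRCm38.p6), run 5′ to 3′ on the plus strand and end at the base before the start site. Capitals mark the match. In Pklr, the gene of liver and red cell pyruvate kinase, RefSeq has 2 start sites in the table, and the match lies before the downstream one (chr3:89136373-89136622). It fits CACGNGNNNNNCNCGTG, the arrangement of paired E boxes to which the glucose-sensing factor ChREBP (gene Mlxipl) binds, and begins 170 bases before the start. In Pck1 (chr2:173152823-173153072) the capitals mark TTACGTCA, a cAMP response element, which begins 93 bases before the start.
Pklr: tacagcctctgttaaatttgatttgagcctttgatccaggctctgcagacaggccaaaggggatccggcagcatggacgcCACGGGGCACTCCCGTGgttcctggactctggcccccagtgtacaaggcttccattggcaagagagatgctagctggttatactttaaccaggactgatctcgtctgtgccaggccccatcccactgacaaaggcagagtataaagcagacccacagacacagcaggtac
Pck1: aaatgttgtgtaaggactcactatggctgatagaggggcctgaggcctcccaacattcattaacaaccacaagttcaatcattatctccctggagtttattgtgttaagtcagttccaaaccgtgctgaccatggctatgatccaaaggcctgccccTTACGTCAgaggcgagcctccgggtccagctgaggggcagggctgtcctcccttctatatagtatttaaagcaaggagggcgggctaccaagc

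Both strands of the 32851 RefSeq promoter windows, from 250 bases before to 50 bases after each start, were searched. The ChREBP arrangement was in 15 windows (0.0457%) and TTACGTCA in 164 (0.499%). Among the 9 genes, each of these matches was in the 1 gene shown. The E box CACGTG (7.15% of all windows), TGACGTCA (1.79%) and the forkhead site GTAAACA (3.65%) matched no window of the 9 genes. TATAAA (13.6%) matched a window of Pklr, of Pfkfb1 and of Slc37a4. The ChREBP arrangement can hold a CACGTG, and the match in Pklr does not. The other motifs share no full match. The 15 windows with the ChREBP arrangement belong to 14 genes, of which 7 were tested. With each of the 2 treatments against HFD, 1 of the 7 was called, which was Pklr itself, where 11.7% (siRNA) and 18.2% (inhibitor) of all tested genes were called, so that the count says nothing particular of these genes. Of the other 6, Crybg3 was called lower in HFD versus LFD (18.4% of all genes) and Il4i1b higher in HFD + Inhib versus LFD (36.9% of all genes). A match describes the sequence and does not show binding.

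Khk was examined first, as the target of the siRNA. Khk was 251, 322, 233 and 251 CPM in the HFD libraries and 11.8, 9.14, 18.1 and 11.5 CPM in the HFD + siRNA libraries, so that the groups lay far apart. It fell 20.9-fold (log2 fold change -4.38, SE 0.23, edgeR adjusted p = 1.9e-08). In the HFD + Inhib libraries Khk was 112, 152, 94.6 and 120.5 CPM, below every HFD library, a 2.21-fold fall (log2 fold change -1.14, SE 0.20, edgeR adjusted p = 0.00075). The LFD and HFD means were 266 ± 59.9 and 264 ± 39.8 CPM (SD, n = 4).

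The counts over the 9 genes differed between the comparisons. HFD versus LFD called 1 of the 9 (Pfkl, lower), where 18.4% of all tested genes were called, 9.58% higher and 8.8% lower. HFD + siRNA versus HFD called 2, both lower (Pklr and Gapdh), against 11.7% of all genes, 5.2% higher and 6.55% lower. HFD + Inhib versus HFD called 5, of which Gckr, Pklr, Gapdh and Slc37a4 were lower and Pfkfb1 was higher, against 18.2% of all genes, 9.8% higher and 8.42% lower. HFD + Inhib versus HFD + siRNA called 6, of which Gckr, Pklr, Fbp1 and Slc37a4 were lower and Pfkfb1 and Gapdh were higher, against 33.8% of all genes, 17.3% higher and 16.6% lower. The median log2 fold change of the 9 was -0.06, -0.21, -0.32 and -0.36 in these comparisons, where that of all tested genes was -0.01, 0.02, -0.00436 and -0.04. Both treatments were compared with the same 4 HFD libraries. The 9 genes were chosen with earlier results of these data known, and all tested genes include many with fewer counts. The shares and medians are thus set side by side as a description only. Called means a Benjamini-Hochberg adjusted p under 0.05 in edgeR's quasi-likelihood test over all 18335 genes.

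**Figure D1:**
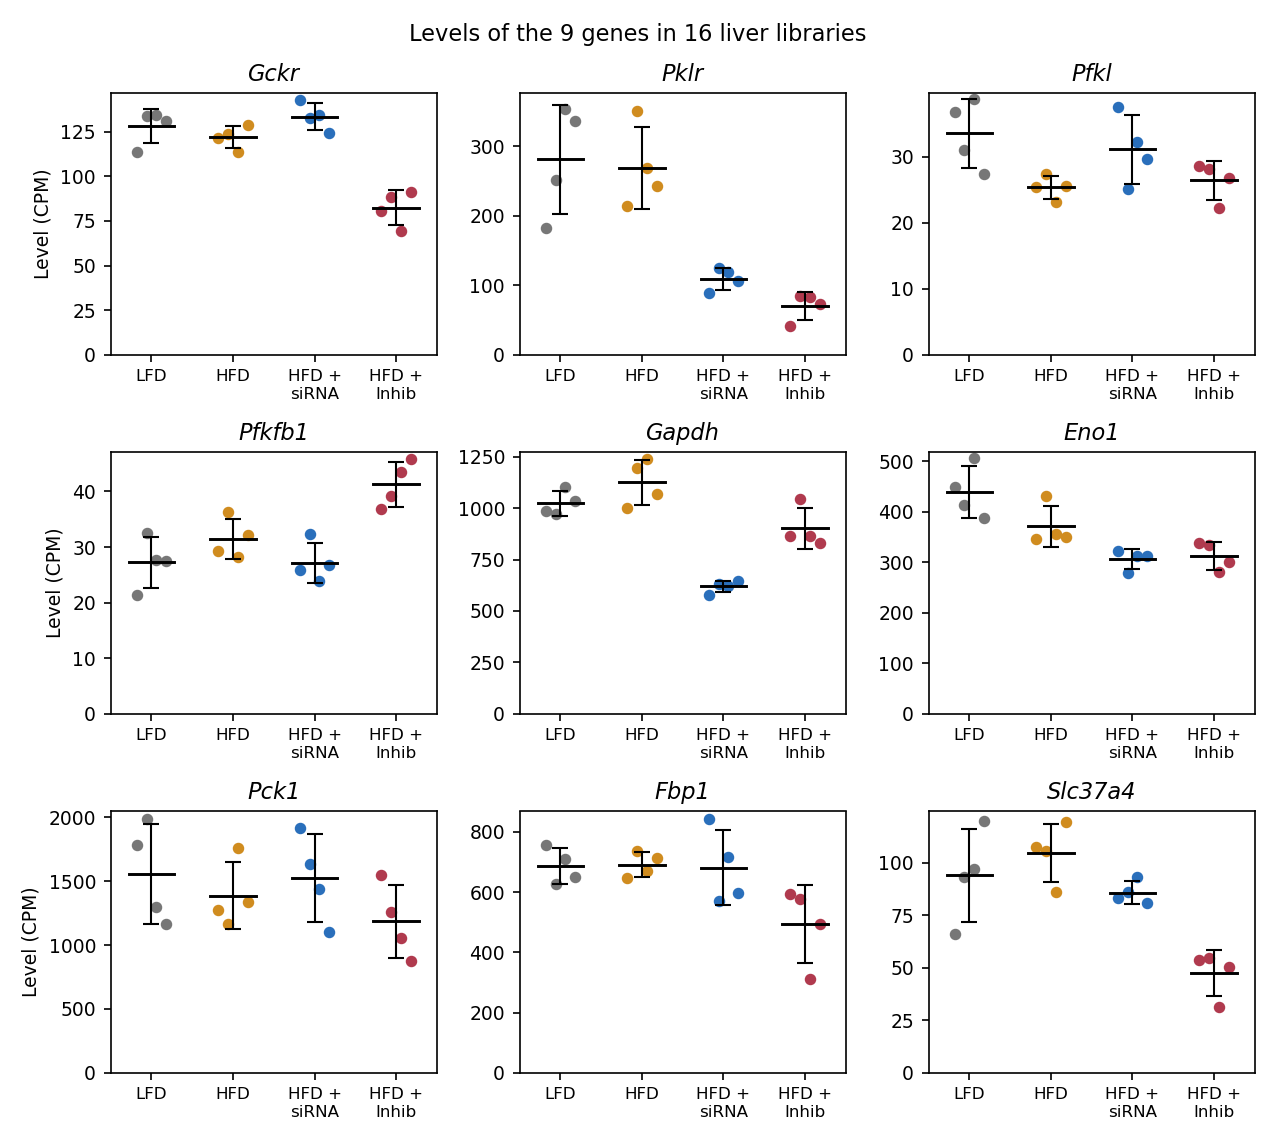
Level of each of the 9 genes (CPM, vertical axes from 0) in the 16 libraries by group. Points are libraries, horizontal lines the group means and error bars the SD (n = 4); Pklr sits lower in both treated groups than in the LFD and HFD groups, Gapdh is lowest with the siRNA, and Gckr and Slc37a4 are lowest with the inhibitor.

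Gckr encodes a regulatory protein of hepatocytes that acts on the entry of glucose into glycolysis. Gckr was 114, 134, 134 and 131 CPM in the LFD libraries, 122, 124, 114 and 129 in the HFD libraries and 143, 133, 134 and 124 in the HFD + siRNA libraries. With the inhibitor Gckr was 80.5, 88.2, 69.2 and 91.1 CPM, below all 12 others. Gckr fell by 32.6% against HFD (log2 fold change -0.57, SE 0.09, edgeR adjusted p = 0.00034). It was also lower with the inhibitor than with the siRNA (log2 fold change -0.70, SE 0.09, edgeR adjusted p = 3.1e-05). The diet and the siRNA gave log2 fold changes of -0.07 and 0.13 (SE 0.09 in each), and neither passed the test.

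Pklr encodes the pyruvate kinase of liver and red cells, which makes pyruvate in the last step of glycolysis. Pklr was 183, 252, 354 and 336 CPM in the LFD libraries and 214, 350.5, 269 and 242 in the HFD libraries, which overlapped (log2 fold change -0.06, SE 0.23, edgeR adjusted p = 0.87). In the HFD + siRNA libraries Pklr was 89.1, 124, 119 and 106 CPM. With the inhibitor Pklr was 41.7, 84.9, 83.5 and 72.9 CPM. All 8 libraries of the treated mice were below the lowest of the other 8.

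Pklr fell 2.45-fold with the siRNA (log2 fold change -1.29, SE 0.23, edgeR adjusted p = 0.0028) and 3.8-fold with the inhibitor (log2 fold change -1.93, SE 0.23, edgeR adjusted p = 3.1e-05). Against LFD the falls were 2.57-fold and 3.97-fold (edgeR adjusted p = 0.0018 and 1.1e-05). The HFD + Inhib libraries were also all below the HFD + siRNA libraries, by 1.55-fold (log2 fold change -0.63, SE 0.23, edgeR adjusted p = 0.042). That last difference did not pass the test once GC content and length were corrected for (log2 fold change -0.45, adjusted p = 0.17), nor in 5 of the 8 fits that left out 1 library, namely replicates 2, 3 and 4 of HFD + siRNA and replicates 1 and 4 of HFD + Inhib. The falls against HFD passed in every alternative.

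The other pyruvate kinase gene is Pkm, which most tissues use. On the scale of CPM per kilobase of transcript, Pklr had a mean level of 92.6 in HFD, 37.8 with the siRNA and 24.4 with the inhibitor. Pkm had 7.23, 7.61 and 6.08 on the same scale. The share of Pklr in the summed level of both genes was 92.6% ± 1.09 in HFD, 83.0% ± 3.44 with the siRNA and 79.0% ± 6.81 with the inhibitor (SD, n = 4). Of the 6 comparisons, Pkm was called in HFD + Inhib versus HFD + siRNA (log2 fold change -0.32, SE 0.11, edgeR adjusted p = 0.032) and in HFD + Inhib versus LFD.

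Gapdh encodes glyceraldehyde-3-phosphate dehydrogenase, which serves both directions of the pathway. Gapdh was 988, 970.5, 1105 and 1034 CPM in the LFD libraries and 1002, 1196, 1238 and 1068 in the HFD libraries. In the HFD + siRNA libraries it was 579.6, 630.5, 620.0 and 647 CPM, below all other libraries. In the HFD + Inhib libraries it was 864, 1046, 866 and 829 CPM, of which 1 library lay within the range of HFD.

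The difference of Gapdh between HFD and LFD did not pass the test (log2 fold change 0.14, SE 0.10, edgeR adjusted p = 0.35), though it did with the GC correction (log2 fold change 0.32, adjusted p = 0.039). Gapdh fell by 45.0% with the siRNA (log2 fold change -0.86, SE 0.10, edgeR adjusted p = 0.00012), in every alternative. With the inhibitor Gapdh fell 1.25-fold (log2 fold change -0.32, SE 0.10, edgeR adjusted p = 0.03). This smaller fall missed the threshold after the GC correction (log2 fold change -0.28, adjusted p = 0.056) and in 5 of 8 fits without 1 library, replicates 2 and 3 of HFD and replicates 1, 3 and 4 of HFD + Inhib. It also missed the threshold with no filter on low counts and in a fit of these groups alone. Gapdh was higher with the inhibitor than with the siRNA by 1.46-fold (log2 fold change 0.54, SE 0.10, edgeR adjusted p = 0.00055). Of the words of 50 bases in Gapdh transcripts, 24.7% also occur in other genes, mostly processed copies. The 110 genes that share at least 50 such words held between 11.1% and 14.6% of the counts summed with Gapdh. With them added, the log2 fold changes of Gapdh were -0.83 with the siRNA and -0.31 with the inhibitor (edgeR adjusted p = 0.00017 and 0.037).

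Pfkl encodes the liver subunit of phosphofructokinase, which commits sugar to glycolysis. Pfkl was 36.9, 31.1, 38.8 and 27.5 CPM in the LFD libraries and 25.4, 27.5, 23.2 and 25.5 in the HFD libraries, which overlapped by a narrow margin at the lowest LFD library. It was lower in HFD by 24.3% (log2 fold change -0.40, SE 0.13, edgeR adjusted p = 0.04). The call was lost in 5 of 8 fits without 1 library (replicates 1 and 3 of LFD and replicates 1, 3 and 4 of HFD) and after the GC correction (log2 fold change -0.23, adjusted p = 0.087). It was also lost with no filter on low counts. The HFD + siRNA libraries held 37.6, 25.1, 32.2 and 29.7 CPM and the HFD + Inhib libraries 28.7, 28.2, 22.2 and 26.8, and neither differed from HFD beyond the threshold (edgeR adjusted p = 0.15 and 0.8).

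Pfkfb1 encodes the liver form of the bifunctional enzyme that makes and breaks fructose 2,6-bisphosphate, the activator of phosphofructokinase and inhibitor of fructose-1,6-bisphosphatase. Pfkfb1 was 21.3, 32.5, 27.7 and 27.5 CPM in LFD, 29.3, 36.3, 28.1 and 32.2 in HFD, and 25.8, 32.3, 24 and 26.7 in HFD + siRNA. In the HFD + Inhib libraries it was 36.9, 39.2, 43.5 and 45.8 CPM, above the other 12. Pfkfb1 rose by 31.2% against HFD (log2 fold change 0.39, SE 0.13, edgeR adjusted p = 0.04) and by 52.0% against HFD + siRNA (log2 fold change 0.60, SE 0.13, edgeR adjusted p = 0.0018). The rise against HFD missed the threshold after the GC correction (log2 fold change 0.27, adjusted p = 0.10) and without any 1 of replicates 1, 3 and 4 of HFD or 2, 3 and 4 of HFD + Inhib. It also missed the threshold with no filter on low counts. The rise against HFD + siRNA passed in every alternative.

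Eno1 encodes enolase 1, which also serves both directions. Eno1 was 449, 413, 506 and 387 CPM in LFD, 345, 431, 356 and 349.7 in HFD, 323, 278, 312 and 313 in HFD + siRNA and 337, 334, 279.7 and 301 in HFD + Inhib. Both treated groups lay below the HFD libraries without overlap, but neither difference passed the test (log2 fold changes -0.28 and -0.24, SE 0.10 in each, edgeR adjusted p = 0.095 and 0.12). With DESeq2 and with the GC correction the fall with the siRNA passed (log2 fold change -0.44, edgeR adjusted p = 0.0012 with the correction). Between the treatments Eno1 had a log2 fold change of 0.03 (edgeR adjusted p = 0.84), and with the GC correction it was higher with the inhibitor than with the siRNA (log2 fold change 0.29, adjusted p = 0.0045). Against LFD, Eno1 was lower in both treated groups (log2 fold changes -0.52 and -0.49, edgeR adjusted p = 0.0055 and 0.0018), of which the difference with the inhibitor was lost with the GC correction (log2 fold change -0.17, adjusted p = 0.071). Of the words of 50 bases in Eno1 transcripts, 26.0% are shared, mostly with the retrogene Eno1b, and 4 such genes held between 5.13% and 7.21% of the summed counts.

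Pck1 encodes the cytosolic phosphoenolpyruvate carboxykinase, the classic hormone-regulated enzyme of gluconeogenesis. Pck1 was 1781, 1991, 1295 and 1162 CPM in LFD, 1274, 1163, 1763 and 1340.3 in HFD, 1919.9, 1633, 1441 and 1104 in HFD + siRNA and 1549, 1259, 1057 and 875 in HFD + Inhib. Every group overlapped every other, and Pck1 passed the test in none of the comparisons. The log2 fold changes were -0.17 in HFD versus LFD, 0.14 with the siRNA and -0.22 with the inhibitor, each with an SE of 0.21 (edgeR adjusted p = 0.62, 0.72 and 0.52).

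Fbp1 encodes fructose-1,6-bisphosphatase, which opposes phosphofructokinase. Fbp1 was 758, 627, 711 and 651 CPM in LFD, 648, 737, 669.5 and 712 in HFD and 841, 572, 716 and 598 in HFD + siRNA. With the inhibitor Fbp1 was 595, 577, 312 and 493 CPM, below all HFD libraries, and replicate 3 was the lowest of the 16. Against HFD the difference did not pass (log2 fold change -0.48, SE 0.17, edgeR adjusted p = 0.054), though it did with DESeq2, with the GC correction (adjusted p = 0.014) and with the replicate number as a block. Against HFD + siRNA it passed (log2 fold change -0.46, SE 0.17, edgeR adjusted p = 0.041). This call was lost with the GC correction (log2 fold change -0.40, adjusted p = 0.058) and without replicate 1 or 3 of HFD + siRNA or replicate 3 or 4 of HFD + Inhib. It was also lost in a fit of these groups alone.

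Slc37a4 encodes the glucose-6-phosphate transporter of the endoplasmic reticulum, which feeds glucose-6-phosphatase in the final step of glucose output. Slc37a4 was 65.9, 93.4, 97.1 and 119.9 CPM in LFD, 108, 105, 85.9 and 119 in HFD and 83.1, 85.9, 93.3 and 80.8 in HFD + siRNA. In the HFD + Inhib libraries it was 53.7, 54.4, 31.3 and 50.3 CPM, below the other 12, with replicate 3 again the lowest. Slc37a4 fell 2.2-fold against HFD (log2 fold change -1.14, SE 0.18, edgeR adjusted p = 0.00027) and was 1.81-fold lower than in HFD + siRNA (log2 fold change -0.85, SE 0.18, edgeR adjusted p = 0.0015), in every alternative. The diet and the siRNA gave log2 fold changes of 0.15 and -0.29 (SE 0.17 in each), and neither passed. The phosphatase G6pc, the partner of Slc37a4, passed no test, with means of 431 ± 98.5 CPM in LFD, 259 ± 104 in HFD, 330.5 ± 119 with the siRNA and 299 ± 84.3 with the inhibitor (SD, n = 4).

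**Figure D2:**
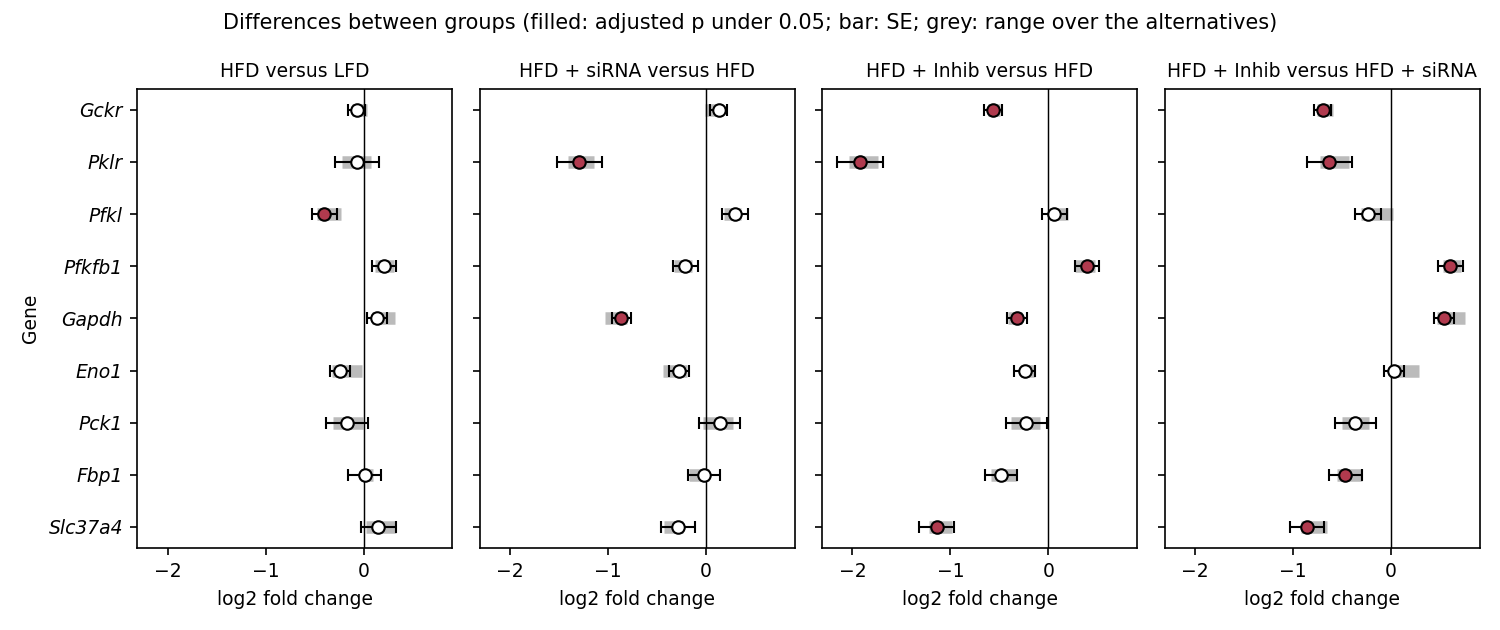
log2 fold change of the 9 genes (horizontal axes) in the 4 main comparisons. Points are the edgeR estimates with their SE, filled where the adjusted p was under 0.05, and grey bars run from the lowest to the highest value over the alternatives; Pklr and Slc37a4 stand farthest from 0 with the inhibitor (-1.93 and -1.14), and Pklr and Gapdh with the siRNA (-1.29 and -0.86).

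The log2 fold changes between groups followed GC content, and this bears on the calls named as lost or gained with the correction. The Spearman correlation of the log2 fold change with GC content, across 3876 genes of high expression that are no independent replicates, was -0.507 for the diet, 0.502 for the siRNA, -0.203 for the inhibitor and -0.47 for the inhibitor against the siRNA. With transcript length, which is corrected in the same step, it was 0.182, -0.334, -0.121 and 0.141 in the same order. These trends run between the groups, so bias in the libraries and changes in expression cannot be told apart. The correction can remove either, and a call lost with it is not shown to be false. The transcripts of the 9 genes ran from 47.9% GC in Pfkfb1 to 57.4% in Eno1, and the median of tested genes was 49.9%.

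The treated groups were also set against LFD. HFD + siRNA versus LFD called 3 of the 9, all lower (Pklr, Gapdh and Eno1), where 8.63% of all tested genes were called, 4.75% higher and 3.88% lower. HFD + Inhib versus LFD called 7, of which Gckr, Pklr, Pfkl, Eno1, Fbp1 and Slc37a4 were lower and Pfkfb1 was higher, where 36.9% of all genes were called, 18.8% higher and 18.2% lower. Gckr and Slc37a4 were 1.56-fold and 1.98-fold lower than in LFD (edgeR adjusted p = 6.2e-05 and 0.00045), and Pfkfb1 was 1.52-fold higher (edgeR adjusted p = 0.0017). Pfkl was 1.27-fold lower (edgeR adjusted p = 0.047), but not with the GC correction (log2 fold change -0.03, adjusted p = 0.81), the replicate block, no filter, a fit of these groups alone or the summed copies, nor without LFD replicate 1 or 3 or HFD + Inhib replicate 2, 3 or 4. Fbp1 was lower than in LFD (log2 fold change -0.47, SE 0.17, edgeR adjusted p = 0.035), but not in a fit of these groups alone or without LFD replicate 1 or 3 or HFD + Inhib replicate 3 or 4 (log2 fold change -0.31 without HFD + Inhib replicate 3, adjusted p = 0.083).

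Per kilobase of transcript, the 9 genes had levels of different order. Over the 16 libraries Gapdh had a mean of 646 ± 147 CPM per kilobase (SD), Pck1 531 ± 123 and Fbp1 432 ± 82.3, and the ranges of these overlapped. Eno1 followed with 176 ± 31.7, and its highest library reached into the range of Fbp1, whose lowest was 211. Pklr (62.9 ± 36.8), Gckr (57.8 ± 11) and Slc37a4 (35.4 ± 11) overlapped each other, all below Eno1. Pfkfb1 had 18.3 ± 3.99, which overlapped Slc37a4, and Pfkl 7.81 ± 1.35, and the highest value of Pfkl was below the lowest of Pfkfb1. The order of the means differed between groups. With the siRNA Gapdh (436 ± 20.2 CPM per kilobase) was below Pck1 (573 ± 129) and Fbp1 (461 ± 83.5). Pklr was above Gckr in LFD and HFD, and below it with the siRNA (37.8 against 66.3) and with the inhibitor (24.4 against 40.8).

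Of 30 other genes of the pathway, 28 were tested, and Pgam2 and Eno2 had too few counts. HFD versus LFD called 7 of the 28, with 6 lower and 1 higher, beside 18.4% of all tested genes. HFD + siRNA versus HFD called 2, both lower, a smaller share than the 11.7% of all genes. HFD + Inhib versus HFD called 5, with 3 lower and 2 higher (Bpgm and Fbp2), close to the 18.2% of all genes. HFD + Inhib versus HFD + siRNA called 7, with 4 lower and 3 higher (Pgam1, Pfkfb2 and Fbp2), a smaller share than the 33.8% of all genes. The median log2 fold change of the 28 was -0.13, -0.02, -0.15 and -0.04. Against LFD, 6 were called with the siRNA (8.63% of all genes) and 10 with the inhibitor (36.9% of all genes), with Fbp2 among the latter. In each comparison of HFD + Inhib the counts include Fbp2, whose call was bound to the group where it is high, as set out below.

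Of the 7 calls for the diet, those of Aldoa, Aldoc, Tpi1 and Pgk1, which act between phosphofructokinase and pyruvate kinase, were lower. Aldoc, a minor aldolase in liver, fell from 11.7 ± 1.10 to 6.27 ± 0.679 CPM (SD, n = 4; log2 fold change -0.90, SE 0.20, edgeR adjusted p = 0.0061). Tpi1, the triose-phosphate isomerase, fell by 21.1% (edgeR adjusted p = 0.013). Aldoa, Pfkm and Pgk1 had log2 fold changes of -0.46, -0.36 and -0.33 (edgeR adjusted p = 0.022, 0.021 and 0.042). Pgk1, phosphoglycerate kinase, shares 53.9% of its words of 50 bases with other genes and is uncertain, and the calls of Aldoa and Pfkm were lost with the GC correction. Pck2, the mitochondrial phosphoenolpyruvate carboxykinase, fell from 4.53 ± 0.989 to 3.03 ± 0.303 CPM (edgeR adjusted p = 0.022). Calls were lost for Tpi1 without LFD replicate 1, for Aldoa and Pfkm without LFD replicate 1 or 3 or HFD replicate 3 or 4, and for Pck2 without any of these or HFD replicate 1. The calls of Aldoa and Pck2 were also lost in a fit of these groups alone, and that of Pfkm with no filter on low counts.

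With the siRNA Pfkfb2, a second bifunctional enzyme, fell by 22.8% (log2 fold change -0.37, SE 0.09, edgeR adjusted p = 0.014). With the inhibitor Bpgm, which makes 2,3-bisphosphoglycerate, rose by 34.1% (log2 fold change 0.42, SE 0.11, edgeR adjusted p = 0.012). Pck2 fell further, to 2.07 ± 0.186 CPM (log2 fold change -0.55, SE 0.17, edgeR adjusted p = 0.03). This call was lost with no filter on low counts and without HFD replicate 2 or HFD + Inhib replicate 2, 3 or 4. Pfkp, which makes the platelet-type phosphofructokinase, also fell (log2 fold change -0.48, edgeR adjusted p = 0.045), close to the threshold. The alternatives were not computed for Pfkp, Pgk1 and Pkm.

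Fbp2, the muscle form of fructose-1,6-bisphosphatase, is nearly silent in liver. It had between 1 and 3 counts per library in HFD and between 19 and 43 in HFD + Inhib. The summed counts were 7 and 131, a ratio of 19.2, given as a description only. Fbp2 passed the filter on low counts only through the HFD + Inhib libraries. A call for Fbp2 was thus bound to the group where it is high, and its p-value is not given. Its calls are counted with the other pathway genes, and the heat map of log2 fold changes draws it. Neither is read as a result. The mean level of Fbp2 in HFD + Inhib was 0.811 CPM per kilobase, where Fbp1 had 334.

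Ldha, the main lactate dehydrogenase gene of the table, separated the treatments from each other. Ldha was 579.6, 667, 590.1 and 716 CPM with the siRNA and 447, 455, 332 and 357 with the inhibitor (log2 fold change -0.68, SE 0.14, edgeR adjusted p = 0.0011). The HFD libraries, from 453 to 563 CPM, lay below those of the siRNA, and that difference did not pass the test (edgeR adjusted p = 0.078). Hk3 was 2.05-fold lower with the inhibitor than with the siRNA (edgeR adjusted p = 0.013), though not with the GC correction or without HFD + siRNA replicate 4 (log2 fold change -0.60). White blood cells also express Hk3, and in the same comparison 5 of 8 macrophage markers were lower (16.6% of all genes), with sums of 301 ± 36.5 CPM with the siRNA and 195 ± 35.5 with the inhibitor (SD, n = 4). Their part in the result was not tested. Pgam1 and Pfkfb2 were higher with the inhibitor than with the siRNA (log2 fold changes 0.30 and 0.26, edgeR adjusted p = 0.02 and 0.033). The call of Pfkfb2 was lost with the GC correction, with no filter on low counts and in a fit of these groups alone. It was also lost in 6 of 8 fits without 1 library, and was kept without replicate 2 of either group. The call of Pgam1 was lost without HFD + Inhib replicate 1, and 36.2% of the words of Pgam1 are shared with other genes.

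**Figure D3:**
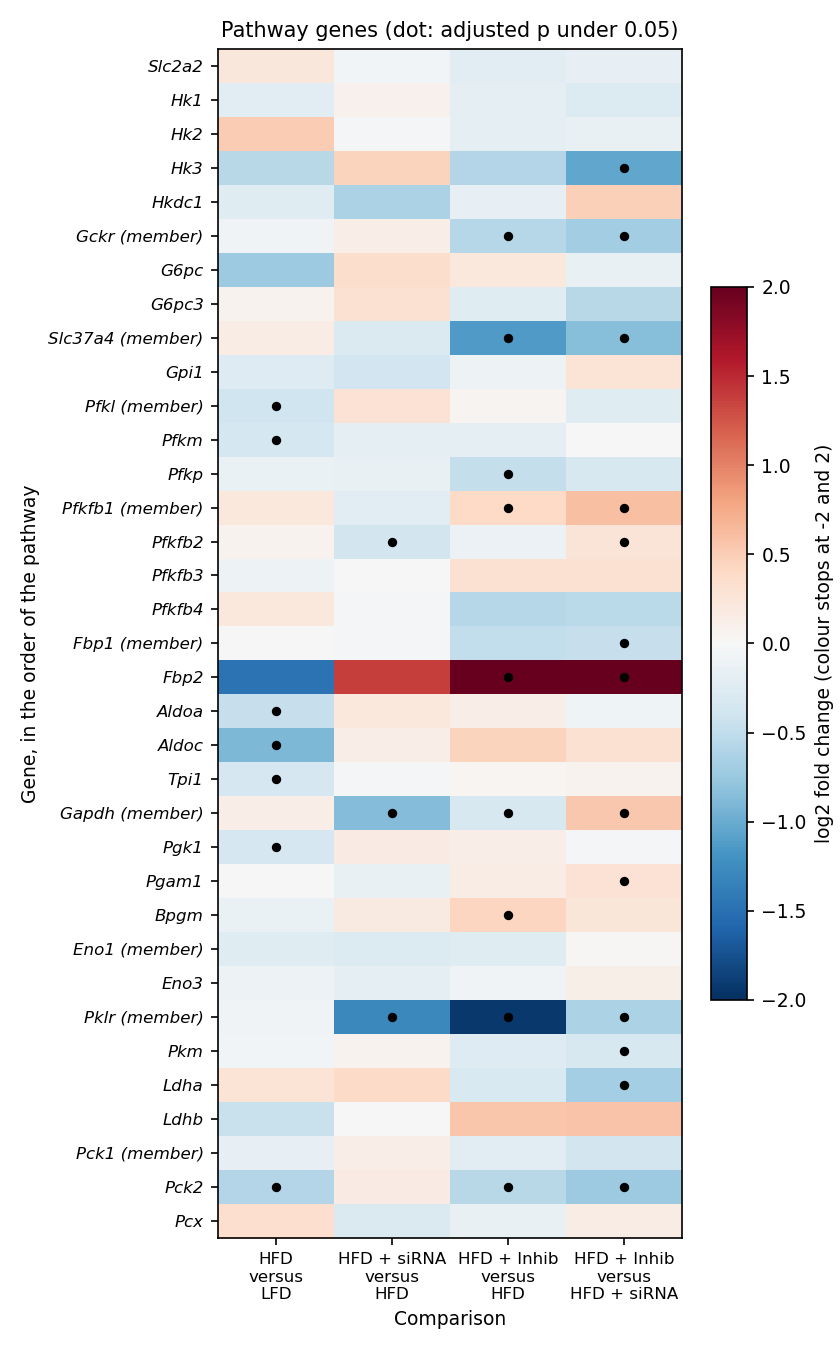
log2 fold change (colour) of 35 tested glycolysis and gluconeogenesis genes (rows, in pathway order) in the 4 main comparisons (columns), with a dot where the edgeR adjusted p was under 0.05. The strongest blue is Pklr with the inhibitor (-1.93) and the strongest red is Fbp2 with the inhibitor, whose colour stops at 2. Fbp2 passed the filter on low counts only through the HFD + Inhib libraries, so a dot for it is not read as a result.

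Among the enolases, fructose-bisphosphatases, phosphoenolpyruvate carboxykinases, phosphofructokinases and bifunctional enzymes, 1 gene held most of the level per kilobase in all 4 groups. Eno1 held between 97.3% and 97.8% of the enolases as a group mean. Fbp1 and Pck1 held over 99% of their pairs, with group means from 99.7% for Fbp1 and from 99.8% for Pck1. The phosphofructokinases were more mixed, with Pfkl at 55.6% ± 1.38 in HFD and 63.2% ± 4.63 in HFD + siRNA (SD, n = 4). Pfkfb1 made up 62.9% ± 1.02 of the 4 bifunctional enzymes in HFD and 69.6% ± 1.95 in HFD + Inhib.

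**Figure D4:**
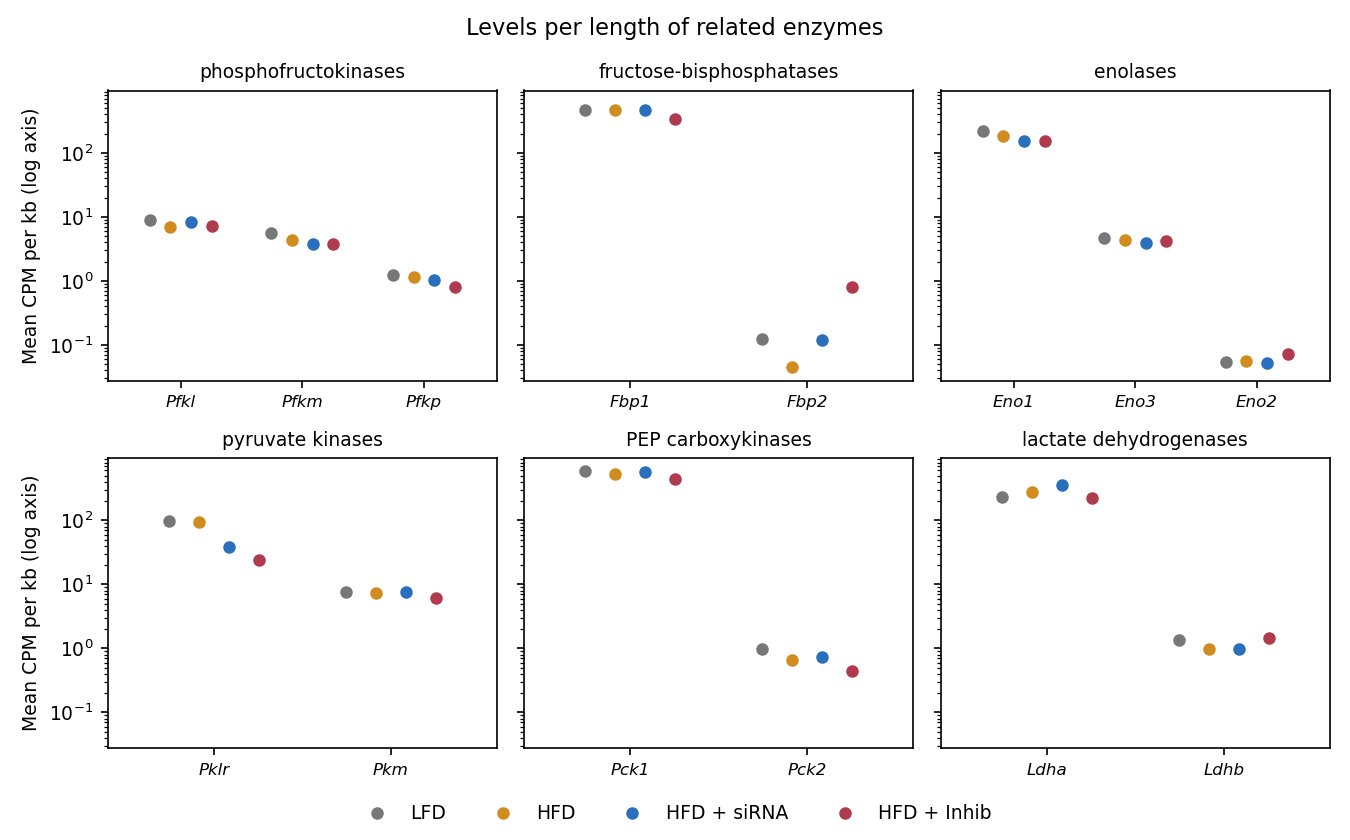
Mean level per group (CPM per kilobase, log axis, 1 point per group of 4 libraries) of enzymes that share a step. Pklr approaches Pkm in the treated groups, from 92.6 in HFD to 24.4 in HFD + Inhib while Pkm stays between 6.08 and 7.61. Fbp2 is drawn at 0.811 in HFD + Inhib beside 334 for Fbp1. Fbp2 passed the filter on low counts only through the HFD + Inhib libraries, so its place is not read as a result.

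Of 24 hormone receptors and transcription factors that act on this pathway, HFD versus LFD called 3, a smaller share than the 18.4% of all tested genes. Mlxipl, which encodes ChREBP, fell by 35.0% (382, 322, 474 and 361 CPM in LFD against 281, 225, 269.8 and 224 in HFD; edgeR adjusted p = 0.0032). The HFD + siRNA and HFD + Inhib means of Mlxipl were 247 ± 14.2 and 254 ± 31.2 CPM beside 250.1 ± 29.8 in HFD (SD, n = 4). The table gives 1 value per gene and does not separate its isoforms. Irs2, an insulin receptor substrate, fell by 52.5% with the diet (edgeR adjusted p = 0.0058), and Ppara, a receptor for fatty acids, rose by 75.1% (edgeR adjusted p = 0.00076).

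HFD + siRNA versus HFD called 1 of the 24, where 11.7% of all genes were called. It was Creb1, which encodes a factor that binds cAMP response elements (log2 fold change -0.40, SE 0.10, edgeR adjusted p = 0.02). That call was lost with the GC correction (log2 fold change -0.03) and without HFD replicate 3 or HFD + siRNA replicate 3 or 4. HFD + Inhib versus HFD called 3 of the 24 (18.2% of all genes), with Irs1 and the corepressor Nr0b2 lower (log2 fold changes -0.35 and -0.79, edgeR adjusted p = 0.04 and 0.023) and Creb3l3, a factor of the fasting response in liver, higher. Creb3l3 was 205, 193, 171 and 201 CPM in HFD and 292, 270.0, 189 and 239 with the inhibitor, which overlapped, and lay at the threshold (log2 fold change 0.36, SE 0.12, edgeR adjusted p = 0.05), and the alternatives were not computed for it. The call of Irs1 was lost with the replicate number as a block (log2 fold change -0.36) and without HFD replicate 2 or 3 or any 1 HFD + Inhib library, and that of Nr0b2 without replicate 1 or 3 of HFD or 1 or 4 of HFD + Inhib. Irs1 also lost its call with no filter on low counts. HFD + Inhib versus HFD + siRNA called 11 of the 24, with 7 lower and 4 higher, where 33.8% of all genes were called. Hnf4a, which maintains hepatocyte gene expression, was 1.32-fold lower with the inhibitor than with the siRNA (edgeR adjusted p = 0.0027), though not with the GC correction (adjusted p = 0.057). Nr0b2, Irs1 and Ppara had log2 fold changes of -1.13, -0.61 and 0.42 in that comparison (edgeR adjusted p = 0.0014, 0.00076 and 0.017), and the call of Ppara was lost without HFD + Inhib replicate 4. Creb1 was higher with the inhibitor (log2 fold change 0.45, edgeR adjusted p = 0.0028), but its sign turned with the GC correction (-0.02).

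The livers were checked by marker genes. The 8 hepatocyte markers (Alb, Apoa1, Apob, Ttr, Trf, Serpina1c, Cps1 and Asgr1) summed to 104789 ± 9453 CPM in LFD, 90975 ± 6223 in HFD, 98654 ± 5972 with the siRNA and 59450 ± 997 with the inhibitor (SD, n = 4), with Alb the most abundant. In single libraries the sum ran from 58266 to 60693 CPM in HFD + Inhib, and from 81908 to 95934 in HFD. With the inhibitor 5 of the 8 fell against HFD, where 8.42% of all tested genes were called lower, among them Alb (log2 fold change -0.77, edgeR adjusted p = 0.00076) and Ttr (log2 fold change -0.93, edgeR adjusted p = 5.6e-05), and none rose. Against HFD + siRNA 6 of the 8 were lower with the inhibitor (16.6% of all genes), and against LFD 7 of the 8 (18.2% of all genes). The falls of Gckr, Pklr, Gapdh and Slc37a4 with the inhibitor, and the lower levels of members in its other comparisons, thus came with lower levels of hepatocyte markers, and the part of that in these results was not tested. With the siRNA 1 of the 8 was called, and it was higher. In whole tissue, fewer cells of a type and less RNA per cell cannot be told apart.

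The other marker lists gave these values in HFD and HFD + Inhib. The sum of 8 macrophage markers was 255 ± 26.0 and 195 ± 35.5 CPM (3 of 8 lower; Clec4f the most abundant), and that of 6 stellate cell markers 403 ± 40.4 and 309.7 ± 14.2 (1 of 6 lower; Reln). The sum of 5 endothelial markers was 259 ± 17.5 and 249 ± 8.01 (1 of 5 higher; Stab2), of 5 lymphocyte markers 17.1 ± 1.82 and 12.2 ± 2.34 (1 of 4 tested lower; Ptprc), of 4 bile duct markers 10.8 ± 2.09 and 15.5 ± 5.36 (none called; Sox9) and of 3 erythroid markers 439.7 ± 100.5 and 399 ± 100.4 (none called; Hbb-bs), with SD over n = 4. Red cells also use Pklr, and the erythroid sum was 457 ± 166 CPM with the siRNA. Adipocyte markers summed to 2.84 ± 3.29 and 34.6 ± 16.3 CPM, nearly all of it Cfd, while 3 of the 4 were at 0 counts in at least 1 library of each group. Muscle markers, among which the glycogen phosphorylase Pygm led, summed to 1.03 ± 0.356 and 1.11 ± 0.206. Kidney and intestine markers summed to 82.5 ± 8.09 and 113 ± 17.4, nearly all of it Fabp2. With the siRNA the 8 macrophage, 6 stellate cell, 5 endothelial and 4 bile duct markers gave no call.

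For each of the 9 genes, the most similar patterns were looked up among 8576 tested genes with a mean log2 CPM of at least 3, by Pearson's r of log2 CPM over the 16 libraries, which share the 4 groups. They are given as a description. Pklr was most like Inhba (r = 0.97), H2-Q7 (0.95) and Col27a1 (0.94). Gapdh was most like Khk (0.95), Ttc7b (0.93) and Desi2 (0.91). Gckr was most like Apoh (0.96), Scly (0.95) and Ces1b (0.95), and Slc37a4 was like Prodh (0.92) and Psmb8 (0.92).

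Pfkfb1 was most like Capn2, Pdha1 and Nmt2 (r = 0.93, 0.93 and 0.92), Pfkl like Ptov1, Ubxn6 and Mul1 (0.93, 0.92 and 0.92), Eno1 like Pcyt2, Dvl1 and Mst1 (0.94, 0.93 and 0.91), and Fbp1 like Rabggta, Rnf187 and Aph1a (0.90, 0.90 and 0.90). Pck1 had the weakest likeness, with Marf1 at 0.81, Aldh8a1 at 0.78 and LOC118568080 at 0.77. By Spearman's rho, 11 of the 27 genes so chosen were again among the 3 most similar to their gene.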

How the data were processed

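The authors deposited 1 table of expected counts, estimated by RSEM, for 50559 gene symbols in 16 liver libraries, with no scaling between libraries. The submitters' processing notes name STAR, RSEM and the build mm39. Versions and the annotation are not given in the sources used here. The study's methods name HTG EdgeSeq, a probe assay that does not match RSEM expected counts, so the assay is uncertain, and statements on GC content, length and shared reads hold only for reads along transcripts. RSEM divides reads that match several genes, and 15.1% of the values were not whole numbers.

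Counts were rounded. Genes were kept by filterByExpr of edgeR 4.0.16 (minimum count 10, minimum total 15; 18335 of 33142 genes with a rounded count) and TMM-scaled. The 6 comparisons were tested in one fit of 16 libraries by the edgeR quasi-likelihood test (common dispersion 0.038) in R 4.3.3, p-values being adjusted by Benjamini-Hochberg across the 18335 genes (threshold 0.05). Groups and replicate numbers came from the labels. No source says how replicates were spread over cages or batches. No library was a repeat of another in its group: the chi-square statistic per gene between libraries of a group was 20.5 or more. Libraries of different groups were not compared in this way.

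The members and lists were chosen with earlier results of these data known. Named are the 9 genes and Khk, of the 30 other pathway genes the 12 and of the 24 regulators the 8 with the smallest p among those past the threshold in at least 1 of the 4 main comparisons (15 and 14 genes), and for each of the 9 the 3 genes most alike, except that some are not reported here, though counts include them. G6pc, Pkm, Pgk1, Pfkp, Creb3l3, Crybg3 and Il4i1b were added after their values were seen. Transcript length and GC content were from GENCODE M21, for 86.5% of the tested genes. The correction enters, as offsets, a curve of GC content and a curve of length per library, each of 5 degrees of freedom. What is called the GC correction thus always includes length. Promoters were from RefSeq and are on GRCm38.p6, not on the build of the counts.

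The alternatives were DESeq2 1.42.0, its size factors in edgeR, no filter, a minimum of 10 counts per library, fits restricted to the groups compared, a block on replicate number, the GC and length correction with and without such a block, each library left out in turn, and, added after the data had been seen, the summed copies of Eno1 and Gapdh. On simulated data for HFD + siRNA versus HFD with 18065 genes, edgeR recovered 71 of 100 genes changed by 1 on the log2 scale and 96 of 98 changed by 2, with 8 false calls. The simulation gave all genes a single dispersion and held no trend with GC content or length. Its recovery and false calls need not hold for the real libraries.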

Additional observations from a re-analysis of the deposited data

Results flagged for a closer look

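The 30 genes chosen by rule were looked at in each of the 4 groups, which gave 120 sets of 4 libraries, and 6 sets had 1 library far from the other 3 (gap over range above Dixon's 95% critical value for 4 values). Chance flags about 1 set in 20, so that about this many would be found without any outlier.

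Among the 9 genes, Gapdh was 1046 CPM in HFD + Inhib replicate 2 and between 829 and 866 in the other 3. Eno1 was 431 CPM in HFD replicate 2 and between 345 and 356 in the others. Without HFD replicate 2, Eno1 was lower in HFD than in LFD past the threshold.

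Among the other genes, Tpi1 was 223 CPM in HFD replicate 2, where the others were between 205 and 208. Pfkm was 14.2 CPM in LFD replicate 4 and 16.4 in each of the others. Hk3 was 3.71 CPM in HFD + Inhib replicate 1 and between 2.33 and 2.40 in the others. Irs2 was 29 CPM in HFD + siRNA replicate 4 and between 45.1 and 48.4 in the others.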

How the results depend on the processing

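Of 46 log2 fold changes of the 9 genes, 26 kept their direction and their side of the threshold under every alternative. The 46 are all values of the main comparisons and, for the treated groups against LFD, only the called ones. Of their 24 calls, 16 were kept throughout, 8 were lost under at least 1 alternative and 0 reversed. Of the other values, 5 passed the threshold under an alternative and 7 changed sign. The cause was not tested.

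Without a filter on low counts more genes are tested, and 0 of the 9 genes were called in HFD versus LFD and 3 in HFD + Inhib versus HFD. Of the other pathway genes, 4 were then called for the diet, 1 for the siRNA, 3 for the inhibitor and 6 for the inhibitor against LFD. With DESeq2, 4 of them were called for the siRNA. Fitting only the compared groups, with fewer libraries, called 3 of them and 808 genes in all in HFD + siRNA versus LFD, and 6 of them in HFD + Inhib versus LFD.

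With the GC correction, 6 of the other pathway genes and 1433 genes in all were called for the siRNA (7 of the former with the block as well). Gapdh with the diet (0.32) and Eno1 for the inhibitor against the siRNA (0.29) gained a call. Signs turned, with the correction alone and with the block added, for Gckr (0.04 and 0.04) and Pklr (0.05 and 0.08) with the diet, Gckr with the siRNA (-0.01 and -0.002), and, for the inhibitor against the siRNA, Pfkl (0.01 and 0.02) and Creb1 (-0.02 and -0.03). Pck1 with the siRNA was -0.03 with both.

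Leaving out 1 library at a time, the called genes of the 9 ranged from 0 to 2 with the diet, 2 to 2 with the siRNA, 3 to 5 with the inhibitor and 4 to 6 for the inhibitor against the siRNA. Those of the other pathway genes ranged from 2 to 7, 1 to 3, 3 to 5 and 4 to 9, and from 6 to 10 for the inhibitor against LFD. All called genes ranged from 2001 (without LFD replicate 3) to 3691 with the diet, from 1100 (without HFD replicate 3) to 1981 with the siRNA, and from 965 (without HFD + siRNA replicate 3) to 1456 in HFD + siRNA versus LFD. The log2 fold change ran from -0.22 to 0.07 for Pklr and from -0.03 to 0.07 for Fbp1 with the diet, and from -0.01 to 0.28 for Pck1 and from -0.15 to 0.03 for Fbp1 with the siRNA.

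The replicate numbers of the labels were not taken to pair the libraries, since not every pair correlated above 0.1. Over 24 pairs of the same number, the median correlation of their deviations was 0.0677 (from -0.132 to 0.336, 6 over 0.1), beside a median of -0.0171 over 72 pairs of different numbers, and 4 of 16 libraries correlated best with their own number. With the replicate block, the calls over all genes went from 3370 to 3299, 2154 to 2080, 3339 to 3341 and 6204 to 6197 in the 4 main comparisons, and those of the 9 genes were 1, 2, 6 and 6. Calls of the 9 that the block gained or lost were Fbp1 with the inhibitor and Pfkl in HFD + Inhib versus LFD.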
